A study of Mus musculus with 3 samples.

Results

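The trimethylated lysine 4 of histone H3 (H3K4me3) was compared between granulosa cells taken 4 h and 12 h after hCG, with 1 library at each time and a further library, taken before hCG (0 h), given beside the named genes as the earlier level. For every protein-coding gene on chromosomes 1 to 19 and X, the bp covered by the deposited peaks were summed over the whole gene and 5 kb on each side of it, a span called its window here. A gene with covered bp was called marked. Of 21627 protein-coding genes, 13080 were marked at 4 h or 12 h and form the set described below. The cells came from C57BL/6 females, labelled wild type and of postnatal day 21 to 28. All groups received eCG (4 IU), an FSH-like gonadotropin that makes follicles grow. The 4 h and 12 h groups then received hCG (5 IU), an LH-like gonadotropin that starts ovulation and luteinization, while the 0 h ovaries were collected before it. Granulosa cells were released by puncturing follicles, so the preparation can also hold other cells of the ovary. How many mice each library represents is not stated in the labels. With 1 library per time no difference has a replicate check and no test was possible. Read depth is unknown, because the lists hold peak positions alone. In addition, the labels place the 12 h library in sequencing lane 5 but those of 0 h and 4 h in lane 4, and the peak names of the 12 h list lack a tag (nolambda) that the other lists carry, so time cannot be told apart from lane or a possible difference in peak calling. Intervals given with shares are 95% exact binomial (Clopper-Pearson) intervals and cover counting error only.

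H3K4me3 is placed by the KMT2 and SETD1 methyltransferase complexes and removed by the KDM5 demethylases, and it marks the starts of transcribed genes and of many CpG-rich promoters. Broad stretches of it at a start are known from genes with high or cell-type-specific transcription. In the preovulatory follicle, the LH surge first induces a short-lived programme in granulosa cells (EGF-like ligands, prostaglandin synthesis, the cumulus matrix), and the cells then leave the estrogen-producing state of the growing follicle and become progesterone-producing luteal cells. The interval from 4 h to 12 h covers the passage between these states.

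The 3 lists were of similar size. On these chromosomes they held 22208, 23619 and 20644 peaks at 0 h, 4 h and 12 h, or 8.87, 10.1 and 8.92 Mb in all. The median width of a peak was 306, 315 and 333 bp in that order, with a lower limit of 136, 139 and 152 bp. Of the 4 h peaks, 72.3% (71.7 to 72.9) were overlapped by at least 1 bp at 12 h, and 84.4% (83.9 to 84.9) of the 12 h peaks were overlapped at 4 h. Peaks without a partner were narrow: the 6540 peaks seen at 4 h and not at 12 h had a median width of 183 bp, against 419 bp for the others, and the 3221 peaks seen at 12 h and not at 4 h had 200 bp, against 378 bp.

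Most marked genes kept the mark from 4 h to 12 h. Of 12752 genes marked at 4 h, 11960 (93.8%) were still marked at 12 h (kept) and 792, or 6.21% (5.80 to 6.64), had no covered bp left (lost). Of 8875 genes unmarked at 4 h, 328, or 3.7% (3.31 to 4.11), were marked at 12 h (acquired). Kept genes had a median log2 ratio of covered bp (12 h over 4 h) of -0.14, and ratios below are centred on that value. A kept gene was called narrowed or broadened when its centred log2 ratio was 1 or more below or above 0, a 2-fold difference in covered bp relative to other kept genes. By this size rule 536 kept genes (4.48%) were narrowed, 402 (3.36%) were broadened and 92.2% lay within 2-fold. Without the centring the numbers were 766 and 292. The middle 50% of kept genes lay between -0.29 and 0.26. Together, 1328 genes or 10.4% of those marked at 4 h were lost or narrowed, and 730 genes or 5.58% of those marked at either time were acquired or broadened. These shares are the background for the gene groups below.

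**Figure D1:**
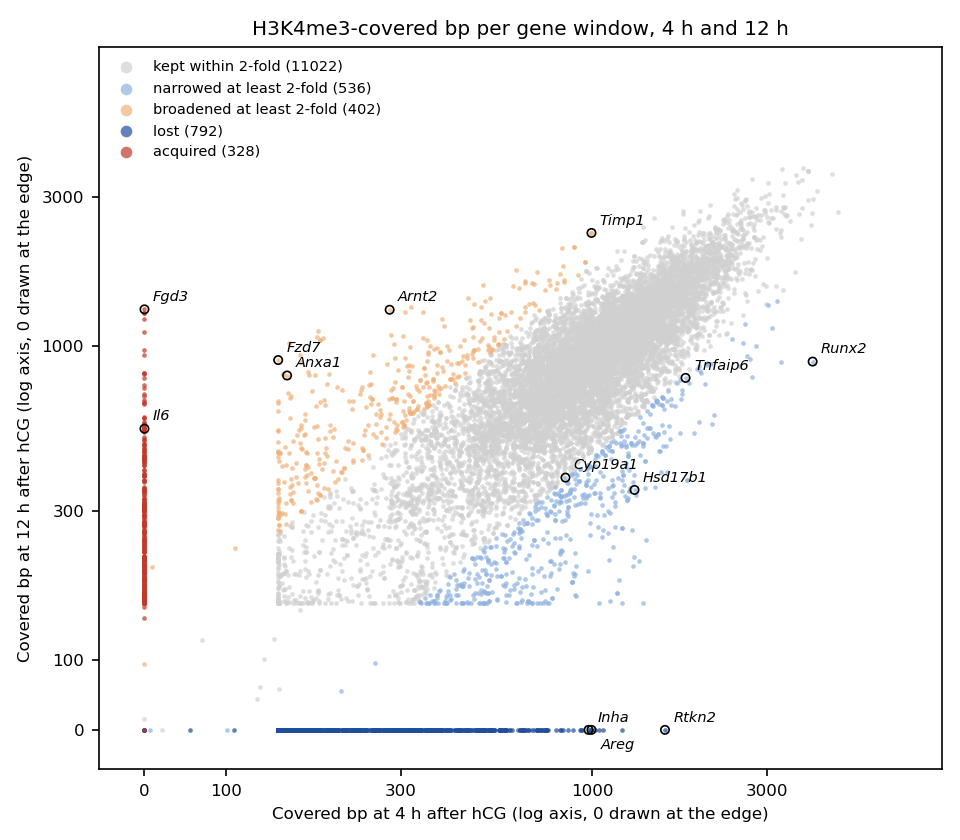
Covered bp per gene window at 4 h (x axis) and 12 h (y axis), both on log axes with windows at 0 or under 60 bp drawn at the edge, for the protein-coding genes marked at either time. Grey points are the 11022 kept genes within 2-fold, light blue and orange points the 536 narrowed and 402 broadened genes, and the edges hold the 792 lost and 328 acquired genes. Rings mark genes named in the text, among them Timp1 at 995 and 2300 bp and Areg at 977 and 0 bp.

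Lost genes had little coverage to begin with. Their medians were 57 bp at 0 h and 234 bp at 4 h, and 594 of the 792 had a single peak at 4 h. Acquired genes had a median of 230 bp at 12 h, and 271 of the 328 had a single peak. Kept genes, in contrast, had medians of 866, 958.5 and 861 bp at 0 h, 4 h and 12 h. The share lost was 49.1% among 687 genes with 1 to 199 bp at 4 h, 26.1% among 1135 genes with 200 to 399 bp, 4.19% among 3391 genes with 400 to 799 bp, 0.282% among 6026 genes with 800 to 1599 bp and 0 among 1513 genes with more. A loss at a gene with 800 bp or more was therefore rare in these lists, and 17 of the 792 lost genes were of that size. Before hCG, 397 lost genes (50.1%) and 122 acquired genes (37.2%) were already marked, against 97.0% of kept genes. The losses and gains thus mix marks that appeared by 4 h with older ones. Windows can also overlap: 216 lost, 102 acquired and 5810 kept genes shared peaks with the window of another gene. A window called shared below has at least 1 peak in common with those named. Sharing is not stated at every gene named below. Mad2l2, Eps8l1, Amhr2, Slc7a8, Zfp36 and Junb, among others, also share peaks with other windows.

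Around 21019 annotated gene starts the 3 lists had the same shape. Coverage was highest from 300 to 399 bp inside the gene at each time, at 33.2%, 35.3% and 33.7% of bases at 0 h, 4 h and 12 h. It dropped to 4.65%, 5.90% and 5.07% in the last 100 bp before the start, the stretch that is usually free of nucleosomes, and had a second, lower crest upstream of 12.1%, 12.6% and 11.1%. Of lost genes with a known start, 400 of 601 (66.6%) had a 4 h peak within 1 kb of it, against 8512 of 9684 kept genes (87.9%). Among acquired genes 179 of 254 (70.5%) had a 12 h peak there.

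**Figure D2:**
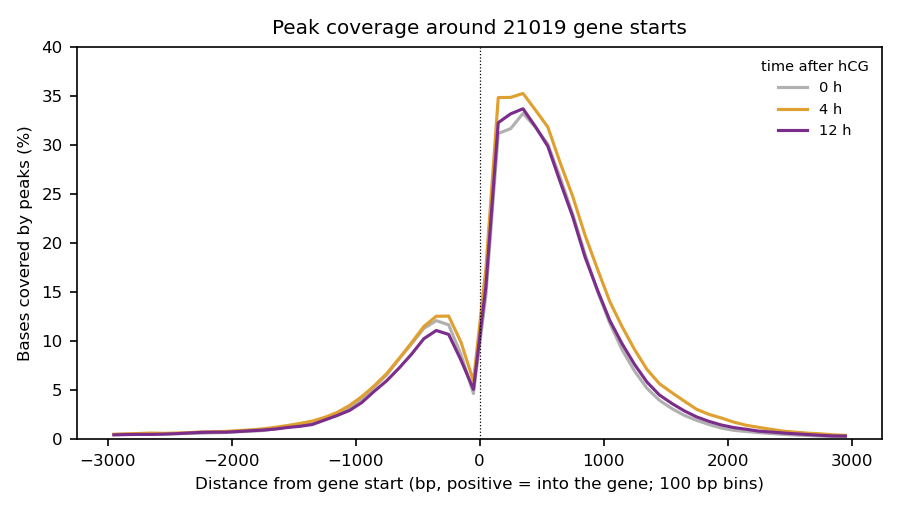
Share of bases covered by peaks (y axis, %) in 100 bp bins by distance from 21019 gene starts (x axis, bp, positive into the gene), with 1 line per time after hCG. The 4 h line peaks at 35.3% and the 12 h line at 33.7%, both from 300 to 399 bp inside the gene, with a trough at the start itself.

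The genes that carry the ovulatory signal out of the mural granulosa cells included Areg and Ptgs2, both lost. Areg, at chr5:91139599-91148432 (GRCm38, the assembly of mm10), encodes amphiregulin, an EGF-like ligand of the follicle. It had 0 bp at 0 h, 977 bp at 4 h and 0 bp at 12 h. Its 4 h peaks lay 225 to 493, 734 to 1207 and 1747 to 1980 bp downstream of its start. Ptgs2, at chr1:150100031-150108234, encodes the inducible cyclooxygenase and likewise had 0, 794 and 0 bp, in 4 peaks between 139 and 2145 bp downstream of the start. Both are short-lived responses to LH, and in these lists their mark was present at 4 h alone. Timp1, at chrX:20870166-20874737, encodes a metalloproteinase inhibitor and behaved the other way, with 0, 995 and 2300 bp. Its 12 h peaks ran from 175 to 2618 bp downstream of the start, past the end of the 4 h peaks at 1335 bp. Timp1 lies inside Syn1, so both windows hold the same peaks. S100a6 (chr3:90612894-90614414, a calcium-binding protein) and Il6 (chr5:30013114-30019975, interleukin 6) were acquired. S100a6 had 0, 0 and 1277 bp, in a window that shares its peaks with S100a5, and Il6 had 0, 0 and 547 bp. The 250 bases before the annotated start of each, on the coding strand from RefSeq on GRCm38.p6, are shown as examples of the 3 patterns. Capitals mark matches on either strand to TGACG (the core of a cyclic AMP response element), TGANTCA (AP-1) and TGTGGT (RUNX), and to TATAAA where it begins 60 to 20 bases before the start. AAGGTCA (NR5A) was searched too. The promoters of Ptx3, Fshr and Rpp25 were searched in the same way, held no match and are not printed. The printed promoters are thus those with a match. Matches can overlap each other.
Areg: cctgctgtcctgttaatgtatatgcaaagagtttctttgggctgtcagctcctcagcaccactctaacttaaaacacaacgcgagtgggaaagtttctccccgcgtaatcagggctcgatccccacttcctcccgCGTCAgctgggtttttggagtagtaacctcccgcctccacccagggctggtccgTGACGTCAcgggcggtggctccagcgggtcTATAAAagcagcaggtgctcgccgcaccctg
Ptgs2: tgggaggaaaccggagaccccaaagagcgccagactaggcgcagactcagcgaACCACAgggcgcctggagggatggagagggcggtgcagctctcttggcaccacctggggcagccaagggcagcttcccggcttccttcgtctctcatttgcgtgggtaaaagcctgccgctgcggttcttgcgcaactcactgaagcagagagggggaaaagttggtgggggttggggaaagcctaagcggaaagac
Timp1: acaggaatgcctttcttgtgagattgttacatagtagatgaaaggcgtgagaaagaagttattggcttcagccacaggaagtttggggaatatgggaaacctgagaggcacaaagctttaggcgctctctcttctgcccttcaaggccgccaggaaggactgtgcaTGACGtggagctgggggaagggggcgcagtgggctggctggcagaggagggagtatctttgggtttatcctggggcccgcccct
S100a6: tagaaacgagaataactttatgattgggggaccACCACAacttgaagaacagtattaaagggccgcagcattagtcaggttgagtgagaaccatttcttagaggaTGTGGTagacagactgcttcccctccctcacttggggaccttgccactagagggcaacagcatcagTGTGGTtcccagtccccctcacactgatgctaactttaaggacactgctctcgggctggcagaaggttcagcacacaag
Il6: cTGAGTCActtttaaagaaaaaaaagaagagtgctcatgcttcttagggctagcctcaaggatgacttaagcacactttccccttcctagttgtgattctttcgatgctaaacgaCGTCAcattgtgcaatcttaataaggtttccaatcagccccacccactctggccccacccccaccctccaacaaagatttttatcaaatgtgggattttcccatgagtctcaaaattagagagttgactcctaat
Areg has TGACG matches that begin 115, 61 and 58 bases before the start, the last 2 overlapping as a palindrome, and a TATA match that begins 31 bases before it. Timp1 has a TGACG match 84 bases before the start, and Il6 has one 135 bases before it and an AP-1 match 249 bases before it. S100a6 has 3 RUNX matches and Ptgs2 has 1. Over the 250 bases before all 21019 starts, 20.3% held TGACG, 6.18% TGANTCA, 12.2% TGTGGT, 3.64% AAGGTCA and 11.7% TATAAA. A match is a description of the letters and not a binding site.

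Other members of these pathways showed the same range of outcomes. Of 12 EGF-like ligands and receptors 11 were marked at 4 h, and 2 were lost and 0 narrowed (18.2%, against the 10.4% background). There was 1 acquired member and 0 broadened (8.33% of members marked at either time, against 5.58%). Besides Areg the ligand gene Hbegf was lost (324, 344 and 0 bp at 0 h, 4 h and 12 h). The ligand gene Btc had 623, 1598 and 834 bp, and the receptor gene Egfr had 770, 756 and 1287 bp, the largest gain among the kept members. Erbb4, another receptor gene, was acquired with 451, 0 and 264 bp, so that its mark was absent at 4 h. The sign of this list's median ratio changed with the choice of window and peaks, and no direction is given for it. Of 17 prostaglandin genes 11 were marked at 4 h, with 1 lost and 0 narrowed (9.09%, near the 10.4% background). Gains were 1 acquired and 2 broadened (25% of members marked at either time, against 5.58%). Ptgs1, the constitutive cyclooxygenase, was acquired with 0, 0 and 704 bp, the reverse of Ptgs2. Slco2a1, which carries prostaglandins into cells for their inactivation, was broadened with 0, 402 and 1004 bp (centred log2 ratio 1.46), and the prostacyclin synthase gene Ptgis with 663, 160 and 474 bp (1.71). Ptger2, a receptor for prostaglandin E2 in cumulus cells, had 438, 845 and 446 bp.

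Genes of the expanded cumulus matrix had less covered sequence at 12 h. Of 14 members 8 were marked at 4 h, and 3 of these (37.5%, against the 10.4% background) were lost or narrowed. The median centred log2 ratio of the 6 kept members was -0.57, and 5 of them were below 0. Ptx3, a pentraxin that crosslinks hyaluronan chains, had 0, 747 and 0 bp in a window it shares with Veph1. Tnfaip6, whose product transfers protein chains to hyaluronan, had 0, 1797 and 794 bp (-1.04). The hyaluronan receptor gene Cd44 went from 208 bp to 0, and Has2, the hyaluronan synthase gene, had 351, 554 and 329 bp. These genes are also expressed in cumulus cells, whose share in each preparation is unknown. In bulk samples, fewer cells of a type and less mark per cell cannot be told apart.

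The next list holds the progesterone receptor gene and its ovulation targets. Of 21 members 19 were marked at 4 h and 0 were lost or narrowed. Over all genes marked at 4 h, 6.21% were lost and 10.4% lost or narrowed. In the other direction 2 were acquired and 2 were broadened (19.05% of members marked at either time, against the 5.58% background). Besides Il6 the acquired member was Edn2, the gene of an endothelin peptide that contracts the follicle wall, with 0, 0 and 240 bp. The neighbouring drug transporter genes Abcb1a and Abcb1b had 479, 289 and 769 bp and 0, 295 and 844 bp. Adamts1, a protease that cleaves versican in the cumulus matrix, had 1572, 1831 and 1131 bp, and Pgr itself had 740, 845 and 414 bp (-0.89, inside the 2-fold limit). Among 36 proteases, inhibitors and matrix crosslinking enzymes 21 were marked at 4 h, and 0 were lost, 1 was narrowed (Mmp16, a membrane-type metalloproteinase, 630, 706 and 232 bp), 3 were acquired and 2 were broadened. The shares were 4.76% lost or narrowed and 20.8% acquired or broadened, against backgrounds of 10.4% and 5.58%. The broadened members were Timp1 and Mmp15, another membrane-type metalloproteinase, with 0, 185 and 353 bp. The acquired members had little coverage: Adamts17 had 228, 0 and 222 bp, and the lysyl oxidase-like genes Loxl1 and Loxl2 had 308, 0 and 290 bp and 0, 0 and 206 bp.

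Luteal genes were kept about as often as all genes. Of 19 genes of progesterone synthesis and luteal function 18 were marked at 4 h and the same number at 12 h, with 0 lost, 1 narrowed and 1 broadened (5.56% lost or narrowed, against the 10.4% background). Star, which brings cholesterol into the mitochondrion, had 0, 1567 and 757 bp (-0.91) in a window shared with Lsm1, inside the 2-fold limit after centring and past it without (log2 ratio -1.05). Cyp11a1, the side-chain cleavage enzyme, had 0, 437 and 353 bp. Hsd3b1, which forms progesterone, had 2355, 3177 and 2359 bp, the largest loss in bp among the kept members. The receptor genes were wider at 12 h, with 1198, 1314 and 1573 bp at Lhcgr (the LH receptor) and 1437, 1669 and 2102 bp at Prlr (the prolactin receptor). Mgarp, a mitochondrial protein of steroidogenic cells, had 775, 252 and 941 bp (2.04), so that its 4 h value was the low one. The narrowed member was Nr5a2, an orphan receptor needed for ovulation and the corpus luteum, with 586, 479 and 203 bp (-1.10), while its relative Nr5a1 had 1704, 1522 and 1531 bp.

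Genes that supply cholesterol and energy had no losses, against 6.21% lost and 10.4% lost or narrowed among all genes marked at 4 h. Many of the cholesterol genes had 800 bp or more at 4 h, where at most 0.282% of all genes were lost. The part of this coverage in the counts was not tested. Among 37 genes of cholesterol synthesis, uptake and storage, 35 were marked at both times, with 2 narrowed and 2 broadened and a median centred log2 ratio of 0.13. Npc1, which releases cholesterol from lysosomes, had 683, 763 and 1308 bp. The broadened members Pmvk (815, 390 and 857 bp) and Lss (468, 139 and 496 bp) were lowest at 4 h. The narrowed members Tm7sf2 (845, 1593 and 482 bp) and Ebp (361, 631 and 183 bp) share their peaks with other windows. Of 24 genes of glucose uptake and glycolysis 23 were marked at both times, 0 were lost or narrowed, and 19 lay above the median of kept genes, with a list median of 0.26 (0.20 to 0.39 under the other settings tried). The broadened members were the lactate exporter gene Slc16a3, with 1463, 838 and 1629 bp, and Pdk4, a kinase that holds pyruvate back from the mitochondrion, with 769, 355 and 897 bp. Slc16a3 (1.10) was within 2-fold without centring and with joined peaks.

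Many genes of the growing follicle were lost or narrowed. Of 25 members marked at 4 h, 5 were lost and 5 were narrowed, together 40% against the 10.4% background, while 2 were acquired and 0 broadened. The median centred log2 ratio of the 20 kept members was -0.37, and 14 of them lay below 0. This list and its direction were known from earlier results of these data. The enzymes of estradiol synthesis had fewer covered bp at each later time. Cyp19a1 (aromatase, chr9:54165937-54268164) had 2045, 845 and 382 bp (-1.01), and Hsd17b1 (which forms estradiol, chr11:101077968-101081188) had 3146, 1304 and 349 bp (-1.76) in a window shared with Coasy and Naglu. Fshr, the FSH receptor (chr17:88984952-89200675), had 1707, 1495 and 675 bp (-1.01). Its 4 peaks of 4 h reached 2310 bp into the gene and its 2 peaks of 12 h reached 1279 bp. Amhr2, the receptor for anti-Muellerian hormone, had 421, 818 and 221 bp.

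The lost members of this list were Inha, Sult1e1, Igfbp5, Inhba and Grem1. Inha, the inhibin alpha subunit (chr1:75507077-75510366), had 780, 995 and 0 bp in a window shared with Obsl1, of which 658 bp lay inside the gene at 4 h. The estrogen sulfotransferase gene Sult1e1 had 0, 759 and 0 bp, and Igfbp5, which binds insulin-like growth factors, 256, 543 and 0 bp. Inhba, the beta subunit of inhibin and activin, and Grem1, a BMP antagonist, were lost from 174 and 166 bp, values near the narrowest peak width. Inhbb, the other inhibin beta subunit, moved against its partners: it was acquired with 681, 0 and 549 bp. Greb1, an estrogen-induced gene, lay just inside the 2-fold limit with 3489, 3319 and 1512 bp (-0.995). Esr2, the estrogen receptor of granulosa cells, had 2041, 1750 and 1222 bp (-0.38).

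Transcription factors of granulosa identity split. Of 24 members 19 were marked at 4 h, and 2 were lost and 4 narrowed (31.6% against the 10.4% background), 1 was acquired and 0 were broadened. The median of the 17 kept members was 0.08, which leaves out the lost members and differs in sign from the summed covered bp, 23759 at 4 h and 17714 at 12 h. Gata6, a partner of Gata4 in gonadal cells, had 1350, 324 and 0 bp. Runx2, a transcription factor of the ovulatory follicle, had 899, 3993 and 895 bp (-2.02), the largest difference in bp of any named gene, in a window shared with Supt3. The Gata cofactor gene Zfpm2 had 1194, 1952 and 576 bp (-1.62), and the homeobox gene Irx5 had 886, 761 and 152 bp (-2.18). Runx1 and Sox4 stayed broad, with 502, 1327 and 1440 bp and 1633, 2473 and 2626 bp. Foxl2, a defining granulosa gene, had 757, 356 and 543 bp, all of it in the flanks and none in the gene itself. Foxo1 had 617 bp at 0 h and 0 bp at both later times.

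The defining granulosa markers were less covered at 12 h in sum. Inha and Inhba had 0 bp then, but Inhba had only 174 bp at 4 h and was unmarked at 0 h too. Fst (1484, 1140 and 1220 bp) and Foxl2 (757, 356 and 543 bp) had more at 12 h than at 4 h. All 10 markers of the list were marked at 4 h and 8 at 12 h, and their summed covered bp were 11927 at 0 h, 8584 at 4 h and 4090 at 12 h. Of the 10, 2 were lost and 5 narrowed (70%, against the 10.4% background). The list overlaps the follicular growth list. In each list of markers of other cells, a smaller share of genes was marked. Endothelial markers were marked at 3 of 12 genes at 4 h and 1 at 12 h, with summed values of 756, 665 and 164 bp, and Pecam1, Cdh5, Tie1 and Vwf were at 0 at both times. Theca markers were marked at 3 of 8 genes at both times, Aldh1a1, Ptch1 and Gli1. The list summed to 2488, 2743 and 2871 bp, highest at 12 h. The other 5 theca markers, among them Cyp17a1 and Insl3, were at 0 at both times. Stromal and smooth muscle markers summed to 0, 139 and 192 bp over 12 genes. Macrophage and neutrophil markers had 3 and 2 of 12 marked genes (1216, 1996 and 1399 bp, most of it at Cd68, whose window shares its peaks with 4 others), with Csf1r, Adgre1 and Lyz2 at 0. Lymphocyte markers had 3 of 10 marked at both times, oocyte markers 1 of 12 (Gdf9, in a window shared with Uqcrq), surface epithelium markers 2 of 10 and erythroid markers 2 and 1 of 7. Changes in the mixture of cells were not tested beyond these values.

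**Figure D3:**
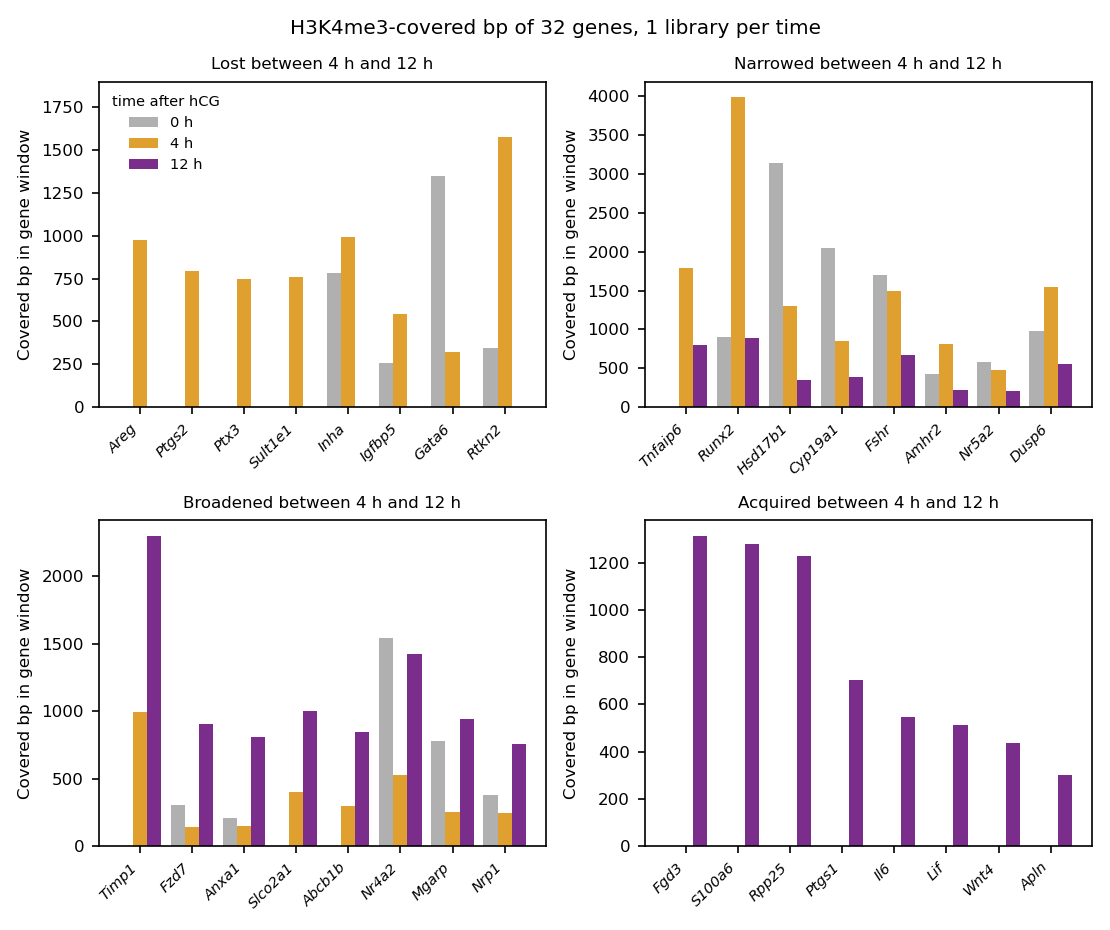
Covered bp in the gene window (y axis, bp, linear, starting at 0) at 0 h, 4 h and 12 h after hCG for 32 genes, 1 bar per library and no error bar because each time has 1 library. Panels hold 8 lost, 8 narrowed, 8 broadened and 8 acquired genes. Areg, Ptgs2, Ptx3 and Sult1e1 have a bar at 4 h alone, and Timp1 reaches 2300 bp at 12 h.

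Immediate early transcription factors were kept at a share near that of all genes (93.8%). All 34 members were marked at 4 h, with 1 lost (Egr4, 144 bp at 4 h), 1 narrowed and 1 broadened. The narrowed member was Egr2, with 290, 962 and 371 bp (-1.24), and Egr1 had 779, 2726 and 1754 bp. Nr4a1, an orphan receptor gene induced by LH, had 719, 2333 and 1314 bp, whereas its relative Nr4a2 was broadened with 1539, 527 and 1426 bp (1.58). Among AP-1 and Klf genes, Jun had 2125, 2119 and 2145 bp, Junb 136, 1839 and 1579 bp and Klf2 138, 1717 and 1776 bp, while Fos had 932, 1291 and 740 bp (-0.66). Among 31 feedback genes of ERK and cyclic AMP signalling, 1 was lost and 2 were narrowed (9.68%, near the 10.4% background). Akap12, which anchors protein kinase A, had 493, 374 and 0 bp. Dusp6, an ERK phosphatase, had 983, 1547 and 560 bp (-1.33), and the phosphodiesterase gene Pde7b had 1519, 1482 and 520 bp (-1.37). Crem, whose product includes the repressor ICER, had 1694, 2914 and 1587 bp. Zfp36, which shortens the life of cytokine mRNAs, had 506, 1376 and 2402 bp (0.94).

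Vascular genes changed in both directions. Of 27 angiogenic and endothelin genes marked at 4 h, 5 were lost and 4 narrowed (33.3%, against the 10.4% background). In the other direction 4 were acquired and 2 broadened (19.4% of members marked at either time, against 5.58%). The growth factor genes Vegfc and Fgf2 had 361, 637 and 258 bp and 0, 168 and 0 bp, and Vegfa had 1367, 2091 and 1618 bp. Flt4, the receptor for Vegfc, was lost (284, 483 and 0 bp) while Nrp1, a coreceptor for Vegfa, was broadened (376, 246 and 753 bp, 1.75). Endothelin genes crossed over: Edn1 and the receptor gene Ednrb were lost from 282 and 142 bp, and Edn2 was acquired. Adm, the vasodilator adrenomedullin, had 146, 167 and 456 bp, but its receptor subunit gene Ramp2 was lost from 251 bp. Apln, the ligand apelin, had 0, 0 and 301 bp. The antiangiogenic gene Thbs1 had 1153, 1080 and 450 bp and the guidance gene Sema3a had 775, 1553 and 649 bp. Most lost and acquired members here had under 400 bp, a range in which 26.1% to 49.1% of all genes marked at 4 h were lost, and the part of this in the counts was not tested.

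Notch and Wnt genes showed a similar mixture. Of 31 marked at 4 h, 5 were lost and 0 narrowed (16.1%, against the 10.4% background). In the other direction 2 were acquired and 4 broadened (18.2% of members marked at either time, against 5.58%). On the Notch side the ligand gene Jag2, the receptor gene Notch3 and the target genes Heyl and Nrarp were lost, from 141, 169, 534 and 190 bp, and the ligand gene Dll1 was broadened with 329, 161 and 471 bp. On the Wnt side Wnt4, needed for the female gonad, was acquired with 0, 0 and 434 bp, and the receptor gene Fzd7 was broadened with 307, 139 and 905 bp (2.84), from a 4 h value at the narrowest peak width. Wnt11 was lost from 139 bp. Except at Heyl, the lost members had 139 to 190 bp at 4 h, a range in which 49.1% of all genes were lost. The part of this in the counts was not tested. The canonical mediators stayed close to their 4 h values, with 1188, 1324 and 1019 bp at Ctnnb1 and 484, 1214 and 1190 bp at Axin2.

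In the list of 40 cytokines, chemokines and receptors, 22 were marked at 4 h, and 3 were lost, 5 acquired, 3 narrowed and 1 broadened. The shares were 27.3% lost or narrowed and 22.2% acquired or broadened, against backgrounds of 10.4% and 5.58%. The 5 acquired members were among 18 unmarked at 4 h, against 3.7% over all genes. Besides Il6, the ligand gene Lif (0, 0 and 514 bp) and the receptor genes Il6ra (0, 0 and 202 bp) and Osmr (0, 0 and 336 bp) were acquired. These belong to the interleukin 6 family, a grouping made after their values were seen, of which the ligand genes Osm and Il11 were unmarked at both times. The shared receptor gene Il6st had 1098, 1059 and 1339 bp. Lifr, the receptor for Lif, went the other way with 1351, 1020 and 342 bp (-1.44). Socs2, a brake on cytokine receptors, had 549, 904 and 160 bp (-2.36), while Socs3 had 684, 825 and 1018 bp. The lost members were the chemokine gene Cxcl2, the chemokine scavenger gene Ackr3 and Tnfsf11, the RANK ligand, from 171, 351 and 294 bp. Tnfrsf11a, the receptor RANK, was acquired with 152 bp.

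Genes of cell division lay within 2-fold at a share near that of all genes (92.2%). Of 39 cyclin, replication and mitosis genes marked at 4 h, 0 were lost, 3 narrowed and 2 broadened (34 within 2-fold), with a median of 0.00. The replication helicase genes Mcm3 and Mcm4 were narrowed (714, 725 and 308 bp; 1191, 1644 and 679 bp), the mitotic cyclin gene Ccnb2 was broadened (836, 252 and 525 bp), and Ccnd2 had 1538, 1301 and 1386 bp. Mcm4 shares its window with Prkdc and was within 2-fold with no flank, with a 1 kb flank and with joined peaks. Of 18 cell cycle inhibitors marked at 4 h, 1 was lost and 1 narrowed (11.1%, near the 10.4% background). The narrowed member was Cdkn1b (p27), with 763, 1322 and 491 bp (-1.29), and Cdkn1a (p21) had 1054, 1308 and 1326 bp. The list of H3K4 methyltransferases and demethylases also holds subunits of their complexes, and Kdm6a and Kdm6b, which act on H3K27. All its 21 genes were kept within 2-fold. The widest difference among them was at the demethylase gene Kdm5b, with 783, 1244 and 600 bp (-0.91), which was narrowed with no flank, with a 1 kb flank, without narrow peaks, with joined peaks and without centring. Of 33 genes in the cytoskeletal list 27 were marked at 4 h, and 2 were lost or narrowed (7.41%, against the 10.4% background). In the other direction 3 were acquired or broadened (10.3% of members marked at either time, against 5.58%). Fgd3 and S100a6 were acquired, Tpm2 was lost from 306 bp, Rhoj was narrowed (383, 575 and 211 bp) and Anxa1 was broadened (204, 147 and 808 bp, 2.60). Of 28 housekeeping genes 1 was narrowed, the RNA polymerase II subunit gene Polr2a with 607, 900 and 219 bp, and their median was -0.21. Of 28 genes of unrelated lineages 6 were marked at 4 h, and 3 of these were lost, against 6.21% of all genes marked at 4 h.

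**Figure D4:**
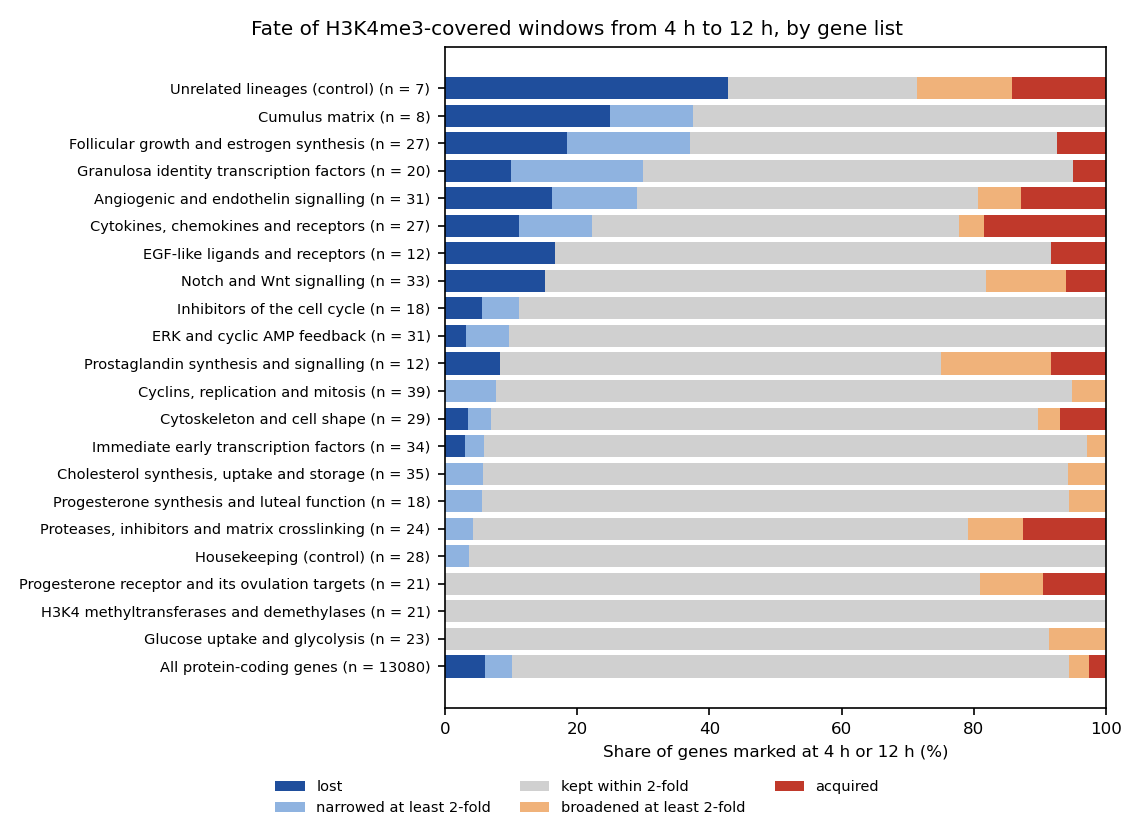
Share of the genes marked at 4 h or 12 h (x axis, %) that were lost, narrowed, kept within 2-fold, broadened or acquired, 1 bar per gene list with its number of marked genes and all protein-coding genes in the lowest bar. The follicular growth bar is dark or light blue for 10 of 27 genes, and the bar of the H3K4 methyltransferase and demethylase list is grey throughout.

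Across the genome and regardless of list, the genes with the widest new coverage came from varied functions. After Fgd3 (an activator of the GTPase Cdc42, 0, 0 and 1313 bp) and S100a6 followed Rpp25 (a subunit of RNase P, 0, 0 and 1227 bp), Gnao1 (a G protein alpha subunit, 0, 0 and 1115 bp), Hs3st3a1 (a heparan sulfate sulfotransferase, 0, 0 and 977 bp) and Bcl3 (a nuclear cofactor of NF-kappaB, 0, 0 and 940 bp). These 6 had no covered bp at either earlier time. The next 4 by covered bp were the tetraspanin gene Tspan15 (584, 0 and 825 bp), Gsg1l (0, 0 and 824 bp), Eps8l1 (412, 0 and 794 bp) and the Wnt5a receptor gene Ror1 (600, 0 and 751 bp). Of these, Tspan15, Eps8l1 and Ror1 had been marked before hCG and were unmarked at 4 h alone.

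Among lost genes the widest was Rtkn2, with 343, 1579 and 0 bp. It was followed by Mad2l2 (a subunit of a translesion DNA polymerase, 753, 1202 and 0 bp), Spin2c (a spindlin, of a family that binds H3K4me3, 767, 1070 and 0 bp), Enpp3 (an ectonucleotidase, 0, 1044 and 0 bp), Serpinb1a (an inhibitor of neutrophil proteases, 556, 1016 and 0 bp), Inha, Wbp1 (1187, 993 and 0 bp), Areg, Zfp948 (a zinc finger gene, 248, 939 and 0 bp) and Tmem35a (a chaperone of acetylcholine receptors, 296, 934 and 0 bp). The 4 h peaks counted for Wbp1 lay in its flanks and are shared with Ino80b and Mogs. Among these 10, Enpp3 and Areg had no mark before hCG, and the other 8 did.

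Of the 10 broadened genes chosen by size, 9 also had fewer covered bp at 4 h than at 0 h. Ranking by the ratio of 12 h over 4 h favours low 4 h values, so this count is no result about the genes. Arnt2, a partner of basic helix-loop-helix PAS factors, had 397, 280 and 1309 bp (2.36), and the apoptosis gene Bmf had 500, 308 and 1288 bp (2.2). Tspan4 had 691, 320 and 1335 bp (2.2), Ndrg4 859, 282 and 1087 bp (2.09) and Prickle3, a planar polarity gene, 874, 345 and 1285 bp (2.04). These 3 windows are shared with other genes and much of their coverage is flank: inside the gene, Tspan4 had 0, 0 and 485 bp, Ndrg4 0, 143 and 426 bp and Prickle3 269, 0 and 676 bp. With a 1 kb flank Ndrg4 was within 2-fold. Mgarp, described above, ranked with them. Kif1a (366, 201 and 743 bp), Atp6v0e2 (796, 287 and 1017 bp) and the TGF-beta inhibitor gene Smad7 (598, 207 and 729 bp) followed, and Bean1 (214, 304 and 1076 bp) was the exception. The narrowed genes were led by Ppp3cc (a calcineurin subunit, 816, 1340 and 207 bp, -2.56), the cadherin gene Fat1 (1681, 1291 and 200 bp, -2.55), Kazald1 (651, 1300 and 213 bp, -2.47), Gtdc1 (810, 1402 and 241 bp, -2.40) and Flrt3 (651, 1110 and 209 bp, -2.27). Then came Ndufs8 (982, 1142 and 229 bp), the secretory kinase gene Fam20c (419, 1284 and 261 bp), the amino acid transporter gene Slc7a8 (831, 1809 and 375 bp), Ppt2 (920, 1208 and 263 bp) and Runx2. Except at Slc7a8 and Runx2, the 12 h values of these narrowed genes were 200 to 263 bp in a single peak, so the ratios rest on the lower end of the peak widths. At Kazald1 and Ndufs8 that peak lay in the flank, and inside the gene they had 0 bp at 12 h.

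The X chromosome stood apart from the autosomes in how often genes lost the mark. Of 415 X genes marked at 4 h, 51 were lost, or 12.3% (9.29 to 15.8). On autosomes 6.01% were lost, and the 19 autosomes ranged from 5.01% to 6.90%. Narrowing was also more frequent, at 9.62% of kept X genes against 2.67% to 6.15% on single autosomes, and so was broadening, at 4.95% against 1.58% to 4.55%. Acquisition was rarer, at 9 of 551 unmarked X genes (1.63%) against 1.81% to 5.83%. The median centred log2 ratio of kept X genes was -0.08, against -0.04 to 0.05 on single autosomes. X genes had less coverage at 4 h, with a median of 700 bp among marked genes against 883 to 1013 bp. At matched coverage the X share lost was 61.5% against 48.3% for 1 to 199 bp, 26.8% against 26.0% for 200 to 399 bp, 5.49% against 4.12% for 400 to 799 bp and 2.14% (3 of 140 genes) against 0.238% for 800 to 1599 bp. The part of the lower coverage in the X value was not tested further.

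**Figure D5:**
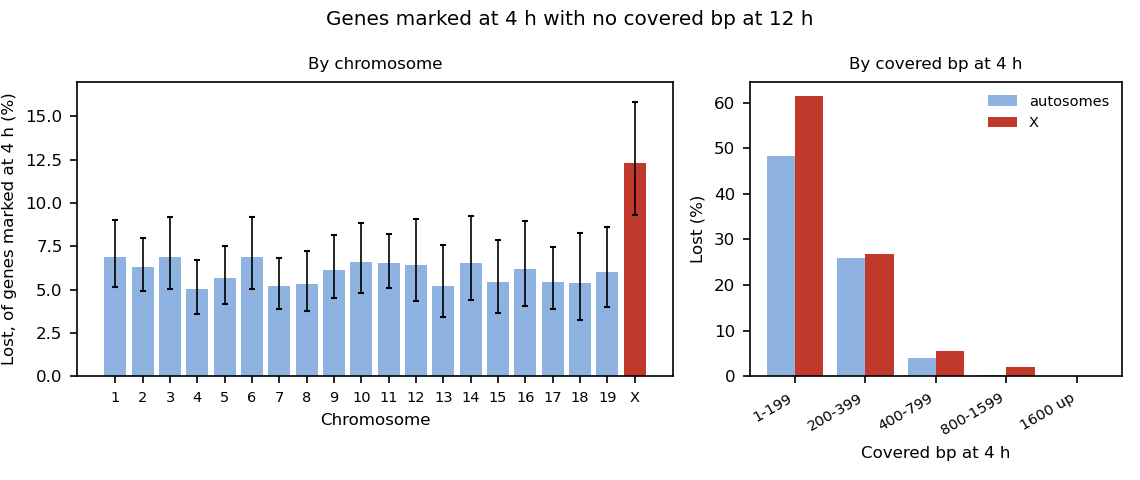
Left, share of genes marked at 4 h with no covered bp at 12 h (y axis, %) on each chromosome, with 95% exact binomial intervals that cover counting error only. The X bar (red) is at 12.3% and the autosomes lie between 5.01% and 6.90%. Right, the same share for X and autosomes by covered bp at 4 h, which falls from 61.5% and 48.3% to 0 in the widest class.

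Named X genes were chosen after their values were seen. Besides Spin2c and Tmem35a, the lost genes with the most coverage were Nhsl2 (0, 819 and 0 bp), the synaptic scaffold gene Dlg3 (779, 708 and 0 bp), Tro (0, 674 and 0 bp), Lrch2 (543, 592 and 0 bp) and the kinase gene Pak3 (552, 495 and 0 bp). Lamp2, a lysosomal membrane protein, was narrowed with 684, 1107 and 299 bp. In the other direction Tsc22d3, a leucine zipper protein induced by glucocorticoids and progesterone, was broadened with 899, 827 and 2064 bp. In the interval before, 1.8% of X genes were lost from 0 h to 4 h (1.56% to 4.07% on autosomes). From 0 h to 12 h, 8.997% were lost (2.60% to 6.56%). These comparisons share libraries with that of 4 h and 12 h and are no independent support.

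Gene families, taken by symbol after earlier results of these data were known, differed widely in how many of their marked members were lost. Over all genes marked at 4 h the share lost was 6.21%. None of 81 cytosolic ribosomal protein genes marked at 4 h was lost, narrowed or broadened. Likewise 0 of 78 mitochondrial ribosomal protein genes and 0 of 47 proteasome genes were lost, and 9 of 353 Zfp genes (2.55%) were. Several families of varied functions lost a larger share, among them tetraspanins (4 of 17), cytochromes P450 (4 of 19) and interleukins and their receptors (5 of 26). Over all genes the share lost fell with covered bp at 4 h, and the part of this in the family counts was not tested. Of 8 Hox genes marked at 4 h, which set position along the body axis, 6 were lost and 2 narrowed, and of 31 unmarked ones 2 were acquired. The acquired Hoxb3 and Hoxb4 had 152 bp at 12 h in 1 shared peak. Hoxb6 and Hoxb7 had 0, 398 and 0 bp in shared peaks, Hoxd3 and Hoxd8 had 276, 226 and 0 bp in shared peaks, and Hoxc9 and Hoxc8 were lost from 230 and 187 bp. Hoxc4 and Hoxc6 had 358, 819 and 218 bp and 260, 793 and 246 bp. As neighbours share peaks, these are not independent changes. Of 11 Sox genes 5 were lost (45.5%), among them Sox6, chosen after its values were seen (256, 582 and 0 bp). Of 46 potassium channel genes 10 were lost (21.7%). Of 69 marked histone genes 8 were lost, 9 narrowed and 0 broadened, with a median of -0.30, and 2 of 30 unmarked ones were acquired, and histone genes lie in clusters that share peaks.

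The sequence before the start differed between the classes. Among 21019 starts of 17273 genes matched to RefSeq promoters, classed by peaks within 1 kb, 10008 were kept, 684 lost, 330 acquired and 9997 unmarked. The median ratio of observed to expected CpG in the 250 bases before the start was 0.780 for kept, 0.615 for lost, 0.619 for acquired and 0.223 for unmarked starts, with GC contents of 61.6%, 58.8%, 61.2% and 49.2%. Lost and acquired starts therefore lay between kept and unmarked ones. Starts with 1 to 199 bp at 4 h had nearly the same CpG ratio whether lost (0.599) or kept (0.612), but with 400 to 799 bp it was 0.655 for 126 lost and 0.750 for 4211 kept starts. TATAAA was found in 4.97% of kept, 7.90% of lost, 7.88% of acquired and 18.8% of unmarked starts. TGACG was found in 29.6%, 21.5%, 19.1% and 11.1%. It contains CG, so its share moves with the CpG content. AP-1, NR5A and RUNX motifs were found in 5.26%, 2.19% and 9.65% of lost starts and in 5.15%, 2.42% and 10.9% of acquired ones. Kept starts had 3.39%, 2.29% and 9.22%, and unmarked starts 9.06%, 5.12% and 15.4%. Of the promoters printed, Areg has a CpG ratio of 0.742 and 15 CpG, Ptgs2 0.564 and 13, Timp1 0.352 and 6, Il6 0.277 and 3, and S100a6 0.192 and 3.

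Non-coding genes were examined where their windows touch no protein-coding window. Of 5712 lncRNA genes 387 were marked at 4 h, of which 106 (27.4%) were lost, and 53 of the 5325 unmarked were acquired. Among protein-coding genes without touching windows 9.14% were lost on autosomes and 13.7% on X. The marked lncRNA genes had a median of 368 bp at 4 h, so coverage was compared too: the share lost was 64.9% of 94 with 1 to 199 bp, 32.4% of 105 with 200 to 399 bp, 8.74% of 103 with 400 to 799 bp and 2.67% of 75 with 800 to 1599 bp. The values over all protein-coding genes were 49.1%, 26.1%, 4.19% and 0.282%. Of 288 miRNA genes 29 were marked at 4 h, with 6 lost and 2 acquired. The following were chosen after their values were seen. Malat1, an abundant nuclear lncRNA, had 1467, 1736 and 796 bp, and Mir99ahg, the host of the Mir99a and let-7c cluster, had 2331, 3303 and 1706 bp. The Mir17 cluster host Mir17hg had 770, 1223 and 1085 bp, and Norad, which sequesters Pumilio proteins, had 704, 1181 and 1235 bp. Larger differences were seen at unnamed models, with 0, 1263 and 0 bp at Gm35837, 0, 1503 and 152 bp at Gm30365 and 0, 320 and 1496 bp at 4930480M12Rik.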

How the data were processed

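H3K4me3 was profiled by chromatin immunoprecipitation and sequencing (18 PCR cycles, per the labels' protocols). The authors deposited a peak list per library, whose values are positions in bp and carry no score, p-value or depth, so precision by depth cannot be given. The submitters' processing notes name CASAVA 1.8, Bowtie2 2.2.3, MACS2 2.0.9 and mm10. The peak threshold and whether input was used in peak calling are not stated there. Gene positions and promoter sequences came from RefSeq tables of GRCm38.p6.

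Covered bp were summed with Python 3.11.15, numpy 2.4.6 and pandas 2.3.3 (intervals with scipy 1.17.1) over each gene and 5 kb on each side, on chromosomes 1 to 19 and X. The calling was tested on simulated data with added and removed peaks. The members and the 30 gene lists (645 symbols, 645 matched) were chosen with earlier results of these data known. Genes were named by size of change: the 10 most covered lost and acquired genes, the 10 most narrowed and broadened (at least 500 bp at one time and 200 bp at the other), and in each response list the lost and acquired members with at least 500 bp and the largest gain and loss among kept members. Other genes named in the report, including all members with less covered bp, were chosen after their values were seen, to show what lies behind a count. Alternatives were windows of other sizes, stricter, equalised or joined peaks, genes without touching windows, no centring, a 3-fold limit and other overlap rules. A few list members are counted but not reported here by name.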

Additional observations from a re-analysis of the deposited data

Results flagged for a closer look

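Peaks on the Y chromosome were not used in any comparison. Their number was 28 at 0 h, 43 at 4 h and 25 at 12 h, and they covered 5549, 10268 and 7078 bp. The 4 h values of 43 peaks and 10268 bp were above those before hCG, although the cells came from females.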

How the results depend on the processing

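No paired analysis was possible because each time has 1 library. No alternative gives an error, and the cause of a moved value was not tested. The X share lost was 10.03% to 16% over the alternatives and above the autosomal share in each, which was 7.79% with no flank, 6.64% with a 1 kb flank, 7.26% without narrow peaks (where X gave 16%), 4.65% with equal numbers of the widest peaks and 9.14% among 8085 genes whose windows touch no other. Acquired genes numbered 516 with equal numbers of peaks. Genes without touching windows, a smaller set, gave 325 lost, 3138 kept, 134 acquired, 184 narrowed and 135 broadened. Joining peaks within 1 kb gave 990 narrowed genes. A 3-fold limit gave 145 narrowed and 110 broadened. Of the 4 h peaks, 52.0% were overlapped with a reciprocal overlap of 50%, 77.2% with equal numbers of peaks and 74.1% without narrow peaks, and of the 12 h peaks 59.5%, 80.7% and 85.8%. Lost or narrowed follicular growth members numbered 8 to 12 over the other settings, and 5 of 14 without touching windows, where 14.7% of all genes were lost or narrowed. Their median stayed below 0 in each setting. Among 83 named genes the difference in covered bp changed sign at Ccnd2 alone, to -67 bp without narrow peaks and -36 bp with joined peaks. At Wbp1 and Foxl2 the difference was 0 with no flank. Apart from sign changes, the class differed at 6 to 13 of the 83 genes under each single choice of flank or peaks, and at 0 of 44 without touching windows. Over all settings it differed at least once at 30 of the 83 genes, or 25 leaving out the 3-fold limit. Mcm4, Sema3a, Slc16a3 and Ndrg4 came within 2-fold in some settings, and Kdm5b, Greb1, Gadd45b, Btc and Notch1 were narrowed and Cdkn2d, Zfp36, Egfr and Npc1 broadened in some. Without narrow peaks Fat1, Flrt3, Ppp3cc and Socs2 were lost and Fzd7, Anxa1 and Ndrg4 acquired, and with no flank Kazald1 and Ndufs8 were lost and Tspan4 and Prickle3 acquired. The median signs of the protease, angiogenic, cytokine and prostaglandin lists, among others, changed with the setting, and no direction was given for them.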
